A study of Mus musculus with 3 samples.

Results

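Imprinted genes are read from 1 parental copy, and this set holds the mouse genes best known for it, from Igf2 and Dlk1 to Snrpn and Nnat. Members were taken by name from the deposited table and grouped by imprinted domain, the stretch of chromosome that shares 1 imprint control region. Of 39 names, 37 had a row among the 33762 features of the table, and they fall into 18 domains. H19 and Kcnq1ot1 had no row under those names and are not analysed here. From textbook knowledge 20 of the 37 are read from the paternal copy and 15 from the maternal copy, and for Gnas and Inpp5f the copy depends on the transcript. Some of the maternal set are known as imprinted in certain tissues only, such as Ube3a in neurons, Grb10 outside neurons, and Tssc4, Cd81 and Gatm in the placenta.

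The samples were the caecum, the colon and the presumptive ileum of wild-type embryos of the Bl6/C57 strain at stage E13.5, with 1 sample of each and no treatment in any. The ileum sample was the last of 3 equal lengths of the small intestine. Polyadenylated RNA of whole segments was sequenced, so each value mixes muscle, mesenchyme, nerve, vessel and epithelium. How many embryos a sample holds, and their sex, were not given in the sources used here. With 1 strain, maternal and paternal reads cannot be told apart, so the data give the summed output of both copies and not the imprint.

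At an imprinted domain, a control region carries DNA methylation from either the egg or the sperm, and this mark sets which copy each nearby gene is read from. Many genes read from the paternal copy favour fetal and placental growth, and many read from the maternal copy restrain it. Several domains also hold long non-coding RNAs read from the copy on which the protein-coding genes are silent. Imprinted genes are widely active in fetal mesoderm and many decline after birth.

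Each sample has 2 columns of each unit in the table, which the column headers name rep.1 and rep.2. Within a sample they differed by 0.485 to 0.486 times the counting variance, against 33.5 to 50.3 times between libraries, so both columns were averaged and counted as 1 library. The totals were 64439701 counts in the caecum, 50772855 in the colon and 50079617 in the ileum. The segment labels matched their markers. Hoxd13, a hindgut gene, had 13 counts in the caecum, 2354 in the colon and 1 in the ileum, and Gata4, a small intestine gene, had 4, 58 and 702. The summed markers of mesenchyme were at 688, 747 and 709 RPKM and those of epithelium at 155, 158 and 149 RPKM in the same order. Single markers within these sums moved in opposite directions. Against the ileum, Col1a2 was 1.66-fold higher and Col1a1 1.58-fold lower in the caecum. In the colon, Twist1 was 4.29-fold higher, Krt8 1.70-fold higher and Cdx2 1.80-fold lower than in the ileum. The sums therefore do not give the share of each tissue. Levels are given as RPKM, which scales reads to gene length and library depth, and folds as ratios of scaled counts with an exact 95% interval. The interval covers counting error only. With both columns of a sample counted as 1 library, there is no replicate of any segment. No difference between segments therefore has a replicate check, and no p-value is given.

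Of the members at least 1.5-fold apart between segments, 6 from different domains or from both ends of one are shown first by their promoters, as the 250 bases before the transcription start in RefSeq on the GRCm38.p6 build, 5′ to 3′ on the strand of the gene. Capitals mark CG, the dinucleotide at which imprints are written. Nnat lies at chr2:157559828-157560077 on the plus strand, Nap1l5 at chr6:58907127-58907376 on the minus strand, Peg3 at chr7:6730420-6730669 on the minus strand, Dio3 at chr12:110278980-110279229 on the plus strand, Dlk1 at chr12:109452573-109452822 on the plus strand and Asb4, the first of its 2 windows, at chr6:5383136-5383385 on the plus strand.
Nnat: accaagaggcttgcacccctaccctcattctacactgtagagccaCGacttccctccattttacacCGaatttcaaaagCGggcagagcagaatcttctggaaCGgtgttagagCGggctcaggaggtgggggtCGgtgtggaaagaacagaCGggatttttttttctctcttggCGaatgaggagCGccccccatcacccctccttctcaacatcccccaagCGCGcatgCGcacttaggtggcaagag
Nap1l5: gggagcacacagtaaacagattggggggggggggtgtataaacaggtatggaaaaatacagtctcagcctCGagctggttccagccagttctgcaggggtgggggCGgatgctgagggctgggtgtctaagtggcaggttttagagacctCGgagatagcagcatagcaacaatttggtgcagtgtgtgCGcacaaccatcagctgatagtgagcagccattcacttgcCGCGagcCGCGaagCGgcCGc
Peg3: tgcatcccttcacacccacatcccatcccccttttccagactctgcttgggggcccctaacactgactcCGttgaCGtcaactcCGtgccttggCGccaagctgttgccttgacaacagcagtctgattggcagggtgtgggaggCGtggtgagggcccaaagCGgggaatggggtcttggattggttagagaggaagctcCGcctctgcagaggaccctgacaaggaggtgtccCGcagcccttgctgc
Dio3: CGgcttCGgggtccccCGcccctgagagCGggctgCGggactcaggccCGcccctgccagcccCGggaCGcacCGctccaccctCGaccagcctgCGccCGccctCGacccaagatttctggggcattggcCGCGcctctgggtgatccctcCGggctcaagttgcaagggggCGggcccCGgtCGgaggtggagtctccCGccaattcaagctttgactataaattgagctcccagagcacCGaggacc
Dlk1: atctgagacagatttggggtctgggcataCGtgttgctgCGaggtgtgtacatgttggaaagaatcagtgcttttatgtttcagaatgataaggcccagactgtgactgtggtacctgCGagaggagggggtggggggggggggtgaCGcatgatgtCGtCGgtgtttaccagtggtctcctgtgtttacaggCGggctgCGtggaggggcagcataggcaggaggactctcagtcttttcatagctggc
Asb4: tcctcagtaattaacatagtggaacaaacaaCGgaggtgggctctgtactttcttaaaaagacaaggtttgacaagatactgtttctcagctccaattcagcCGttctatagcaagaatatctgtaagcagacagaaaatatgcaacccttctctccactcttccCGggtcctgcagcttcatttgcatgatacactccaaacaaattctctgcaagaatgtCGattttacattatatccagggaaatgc
These windows hold 12 CG in Nnat, 10 in Nap1l5, 8 in Peg3, 21 in Dio3, 8 in Dlk1 and 4 in Asb4. Of the 37 members, 32 had an entry, with 48 windows in all, since some genes have several starts. The median was 10 CG per member window, with a range of 0 to 40, and 6 over all 32851 windows. The hexamer TGCCGC, which the imprint-keeping zinc finger protein Zfp57 binds when methylated, was searched on both strands. It was in 7 of the 48 member windows (14.6%), in Meg3, Mest, Nap1l5, Plagl1, Zdbf2 and Zim1, and in 8.68% of all windows. Mest windows 2 and 3 (chr6:30737800-30738049 and chr6:30737803-30738052) overlap almost wholly and both count among the 7. The hexamer itself holds a CG and the member windows held more CG, so the 14.6% and 8.68% were not compared at like CG. A match in a window is a description of its letters and not a binding site. Peg3 and Usp29 start 164 bases apart in opposite directions in RefSeq, so their windows share 163 bases.

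The 37 members took 1.69% of all counts in the caecum (95% interval 1.688 to 1.694, Clopper-Pearson), 1.51% in the colon (1.502 to 1.509) and 1.61% in the ileum (1.606 to 1.613), while being 0.110% of the features. The 3 most abundant members of each library held 57.3% of the member counts in the caecum, 55.2% in the colon and 58.4% in the ileum. Igf2 alone held 0.597% of all counts in the caecum, 0.423% in the colon and 0.585% in the ileum. Without Igf2, an alternative added after the values were seen, the members held 1.09% in the caecum, 1.08% in the colon and 1.03% in the ileum. On the mean RPKM of the 3 libraries, 7 members stood at 100 or more and 5 stood below 1.

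**Figure D1:**
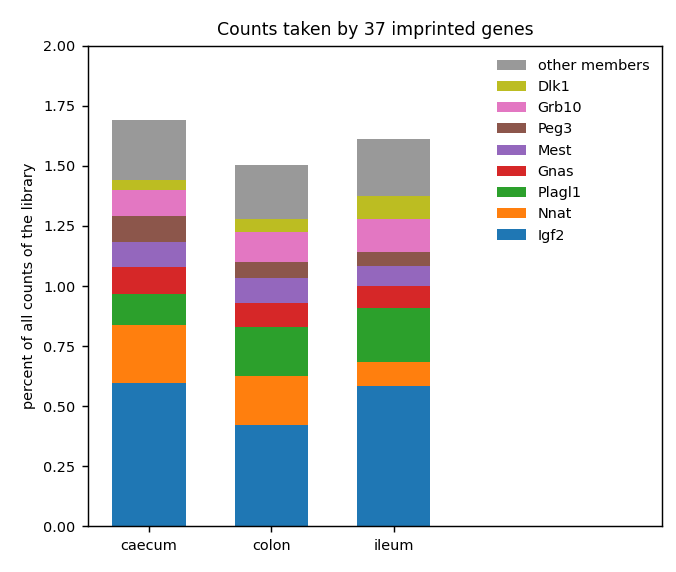
Share of all counts held by the imprinted genes in each library, in percent of counts on a linear axis from 0, with the 8 most abundant members as separate parts of each bar. The caecum stands at 1.69%, the colon at 1.51% and the ileum at 1.61%, and the part taken by Igf2 is smallest in the colon.

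Between segments most members stood close together and a few stood far apart. In 14 of the 37 the highest and lowest library differed by at least 1.5-fold with an interval that excluded 1, where 23.1% of all features passed this rule. In the other 23 the widest fold was 1.04 to 1.48. The 14 were Dlk1, Rtl1, Dio3, Peg3, Usp29, Peg10, Asb4, Plagl1, Phlda2, Slc22a18, Nnat, Magel2, Zdbf2 and Nap1l5.

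In the caecum against the ileum, 5 of 36 members that reached 20 counts in either library were at least 2-fold higher, Dio3, Nap1l5, Asb4, Usp29 and Nnat, where 4.59% of all such features were. At least 2-fold lower was 1 of the 36, Dlk1, where 2.52% of all features were. In the caecum against the colon, 4 of 37 were at least 2-fold higher, Asb4, Nap1l5, Usp29 and Dio3, against 5.11% of all features, and 1 was at least 2-fold lower, Zdbf2, against 2.74%. In the colon against the ileum, 2 of 37 were at least 2-fold higher, Dio3 and Phlda2, against 4.04% of all features. At least 2-fold lower were 0, against 4.29%. Phlda2 reached 20 counts through the colon alone, with 26 counts there and 6 in the ileum, so a high colon value was built into its entry. With a minimum of 100 counts, 1 member was at least 2-fold higher in colon than in ileum. These counts are small, and the interval of several members spans the threshold, which Zdbf2 passed at 2.01-fold in one comparison and missed at 1.999-fold in another.

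At 1.5-fold, 8 members were higher and 4 lower in caecum than in ileum, against 9.45% and 5.91% of all features. In the caecum against the colon 6 were higher and 5 lower, against 9.55% and 5.92%. In the colon against the ileum 4 were higher and 2 lower, against 8.02% and 7.88%. Phlda2, which entered through its colon counts alone, is among the 5 lower in caecum than in colon and the 4 higher in colon than in ileum. Features with few counts carry wider intervals, so abundant features were also read on their own. Among features that reached 1000 counts in either library of a pair, 6 of 26 members were at least 1.5-fold apart in either direction between caecum and ileum, against 5.82% of all features. The same count was 4 of 26 between caecum and colon, against 5.4%, and 4 of 26 between colon and ileum, against 5.17%. The members were chosen with earlier results of these data known, so these shares are descriptions.

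**Figure D2:**
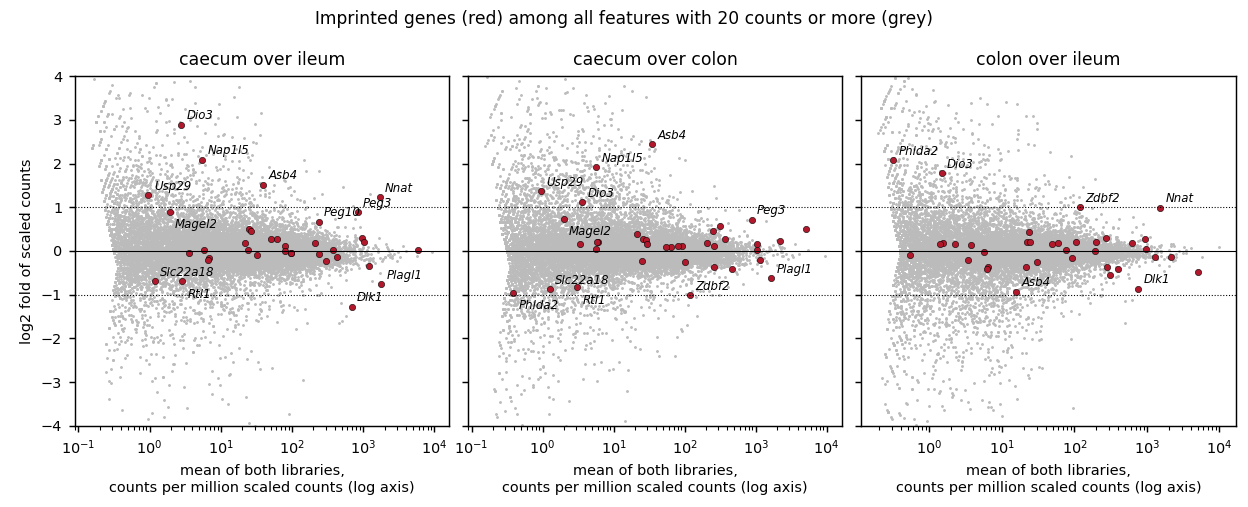
Fold of each feature between 2 libraries on a log2 axis against its mean abundance on a log axis, for the 3 comparisons in counts per scaled library, with imprinted genes in red over all features in grey and dotted lines at 2-fold. Most members lie near 0 at high abundance, and Dio3, Nap1l5, Asb4 and Dlk1 stand away from them.

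The median member was shifted little. The median log2 fold was 0.03 for caecum over ileum (36 members), 0.15 for caecum over colon (37) and 0.05 for colon over ileum (37), against 0.0089, 0.0087 and -0.0042 over all features. The median size of the log2 fold, whatever its sign, was 0.25, 0.28 and 0.22 for the members and 0.19, 0.17 and 0.15 for all features in the same 3 comparisons. Members read from the paternal copy had median log2 folds of 0.23 for caecum over ileum, 0.20 for caecum over colon and 0.16 for colon over ileum, and members read from the maternal copy -0.06, 0.12 and -0.13. The highest library was the caecum for 20 of the 37 members, where it was for 36.7% of all features, the colon for 7, where it was for 28.9%, and the ileum for 10, where it was for 34.3%. For 14 members the order was caecum, then colon, then ileum.

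**Figure D3:**
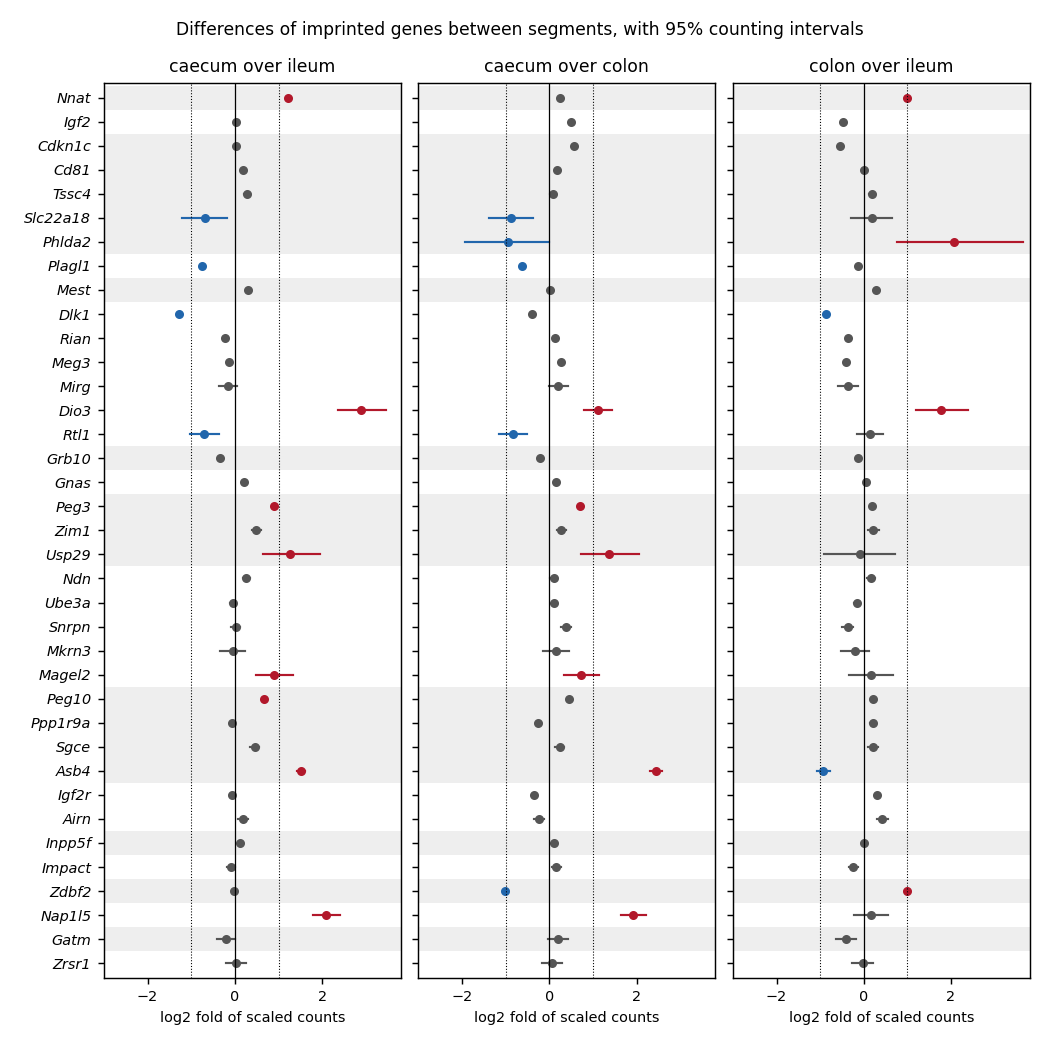
Log2 fold of scaled counts of each imprinted gene in the 3 comparisons, grouped by domain, with exact 95% intervals that cover counting error only, dotted lines at 2-fold, and red or blue for members at least 1.5-fold higher or lower with an interval that excludes no difference. Farthest to the right lie Dio3, Nap1l5 and Asb4 for caecum over ileum and Asb4, Nap1l5 and Usp29 for caecum over colon. Dlk1 lies farthest to the left for caecum over ileum, where Phlda2 is left out for low counts.

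The growth factor axis held Igf2, the member with the most counts in each of the 3 libraries. This fetal insulin-like growth factor lies at chr7:149836673-149852721 on mm9, the build of the deposited coordinates. It stood at 1087 RPKM in the caecum, 770.4 in the colon and 1064 in the ileum, which ranked it 31, 63 and 32 among all features. It was thus level in caecum and ileum (1.01-fold) and low in the colon, by 1.40-fold (1.39 to 1.41) against the ileum, while the caecum stood 1.42-fold (1.41 to 1.42) above the colon. Igf2r, the receptor that carries Igf2 to the lysosome for breakdown, stood at 24.4 RPKM in the caecum, 31.5 in the colon and 25.4 in the ileum, the highest where its ligand was lowest. Per length, Igf2r over Igf2 was 0.0225 in the caecum, 0.0409 in the colon and 0.0239 in the ileum. Airn, the paternal non-coding RNA that runs across the start of Igf2r in the opposite direction and silences it, stood at 6.45, 7.62 and 5.59 RPKM in the same order. Igf2r over Airn per length was 3.79, 4.14 and 4.55. Airn and Igf2r overlap, and the use of strand in counting was not given in the sources used here, so their reads were not told apart where they overlap.

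Genes that restrain growth or the cell cycle were also among the abundant members. Cdkn1c, an inhibitor of cyclin-dependent kinases, stood at 195 RPKM in the caecum, 132 in the colon and 189.9 in the ileum. Its order was that of Igf2, level in caecum and ileum (1.02-fold, 0.999 to 1.04) and lower in the colon by 1.46-fold (1.43 to 1.49) against the ileum. Grb10, an adaptor that damps signals of the insulin and growth factor receptors, had another order, at 117 RPKM in the caecum, 135 in the colon and 146 in the ileum, with the caecum 1.26-fold (1.25 to 1.28) lower than the ileum. Plagl1, a zinc finger transcription factor that slows the cell cycle, stood at 181 RPKM in the caecum, 279.8 in the colon and 303 in the ileum. The caecum was the low segment for Plagl1, by 1.69-fold (1.67 to 1.70) against the ileum and 1.54-fold (1.52 to 1.55) against the colon.

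Near Cdkn1c the other members of the Kcnq1 domain were at very different levels. Phlda2, which restrains placental growth, had 17 counts in the caecum, 26 in the colon and 6 in the ileum, and Slc22a18, a member of the organic cation transporter family, had 58, 84 and 72. Both had their highest value in the colon, where Cdkn1c was lowest, but at these counts that order was only partly resolved. For Slc22a18 the colon was not resolved from the ileum (1.13-fold, 0.818 to 1.58). For Phlda2 the caecum over the colon was 0.517 (0.263 to 0.99), an interval that only just excluded no difference. Slc22a18 was 1.83-fold (1.29 to 2.60) lower in caecum than in colon, and Phlda2 was 4.21-fold (1.70 to 12.5) higher in colon than ileum. Phlda2 reached the minimum of 20 counts through the colon alone, so a high colon value was built into its entry. Cd81, a tetraspanin of the cell surface, stood at 97.7 RPKM in the caecum, 86.5 in the colon and 84.7 in the ileum, and Tssc4 at 38.3, 36.2 and 31.4. Neither differed by more than 1.21-fold in any comparison of the 3.

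In the Dlk1-Dio3 domain on chromosome 12, the genes at both ends had opposite orders among the 3 segments. Dlk1, a transmembrane protein with EGF repeats that holds back differentiation of fat cells, lies at chr12:110691033-110701546 on mm9 and stood at 71.2 RPKM in the caecum, 94.7 in the colon and 170.1 in the ileum. It was 2.42-fold (2.38 to 2.45) lower in caecum than in ileum, and 1.82-fold (1.80 to 1.85) lower in colon than in ileum. Dio3, the deiodinase that inactivates thyroid hormone, lies at the far end at chr12:111517278-111519307 and had 318 counts in the caecum, 116 in the colon and 33 in the ileum, or 2.43, 1.12 and 0.325 RPKM. The caecum stood 7.41-fold (5.17 to 11.0) above the ileum and 2.17-fold (1.75 to 2.71) above the colon, and the colon 3.42-fold (2.30 to 5.19) above the ileum. Dlk1 and Dio3 are both read from the paternal copy. In whole segments, fewer cells of a type and less RNA per cell cannot be told apart. The summed level of 6 smooth muscle markers had the order of Dlk1, with 413 RPKM in the caecum, 567 in the colon and 1081 in the ileum. Of these markers 5 were at least 2-fold lower in caecum than in ileum. The other, Des, was highest in the caecum, at 12.8, 8.23 and 9.19 RPKM in the same order. Myh11 was level in caecum and colon, at 38.1, 37.2 and 114 RPKM. The part of these markers in the Dlk1 difference was not tested. The sum of 5 striated muscle markers was 0.882 RPKM in the caecum, 0.616 in the colon and 3.32 in the ileum. Actc1 held 2.96 RPKM of the ileum sum. Myh3 had 74, 13 and 94 counts, Ttn 42, 40 and 24, and Myog and Myod1 at most 2.

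The maternal non-coding RNAs between them stayed closer together. Meg3 stood at 22.7 RPKM in the caecum, 18.8 in the colon and 24.6 in the ileum, and Rian, which carries small nucleolar RNAs, at 33.1, 30.6 and 38.6. Mirg, which carries microRNAs, stood at 2.03, 1.77 and 2.24 RPKM in the same order. All of them were lowest in the colon and highest in the ileum, by 1.28-fold to 1.33-fold between these segments. Their ratios to each other per length moved little, with Rian over Meg3 at 1.46 in the caecum, 1.63 in the colon and 1.57 in the ileum and Mirg over Meg3 at 0.0894, 0.0941 and 0.0914. The ratio of Meg3 to Dlk1 moved more, with 0.319 (0.313 to 0.324) in the caecum, 0.198 (0.195 to 0.202) in the colon and 0.144 (0.142 to 0.147) in the ileum. Its intervals did not overlap, and they cover counting error only.

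**Figure D4:**
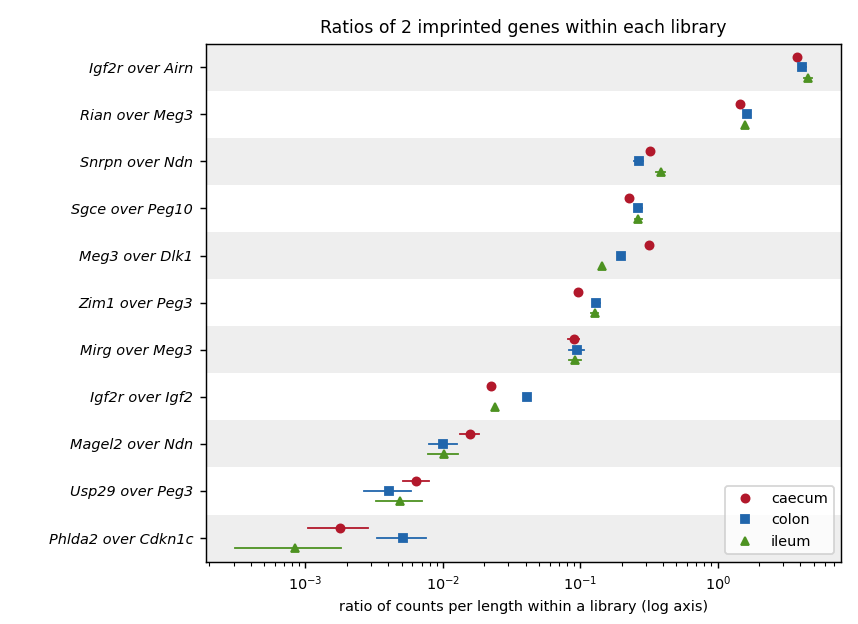
Ratio of levels per length for pairs of imprinted genes in each library on a log axis, with exact 95% intervals that cover counting error only. Meg3 over Dlk1 stands at 0.319 in the caecum, 0.198 in the colon and 0.144 in the ileum, while Rian over Meg3 stays between 1.46 and 1.63.

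Rtl1, a gene derived from a retrotransposon and read from the paternal copy, had 142 counts in the caecum, 200 in the colon and 177 in the ileum. It was lower in the caecum by 1.62-fold (1.29 to 2.04) against the ileum and 1.78-fold (1.43 to 2.22) against the colon. On the other strand the maternal copy gives microRNAs that are fully complementary to Rtl1 and cleave its transcript. Their mature sequences from RefSeq, with the seed (bases 2 to 8) in capitals, are printed for the 4 best known of them.
mmu-miR-127-3p: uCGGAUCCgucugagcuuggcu
mmu-miR-431-5p: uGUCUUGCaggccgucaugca
mmu-miR-433-3p: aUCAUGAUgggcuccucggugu
mmu-miR-434-3p: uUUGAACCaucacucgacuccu
The 6 microRNA features opposite Rtl1 give 11 mature sequences with 11 different seeds. Each had 0 to 9 counts per library. Libraries of polyadenylated RNA do not hold mature microRNAs, and reads of Rtl1 itself can fall on these features where strand is not used, so these counts give no level for the microRNAs.

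Peg3 and its neighbours on chromosome 7 were highest in the caecum. Peg3, a zinc finger protein read from the paternal copy, lies at chr7:6656603-6683132 on mm9 and stood at 81.9 RPKM in the caecum, 50.2 in the colon and 43.7 in the ileum. The caecum was 1.85-fold (1.83 to 1.88) above the ileum and 1.64-fold (1.62 to 1.66) above the colon. Usp29, a ubiquitin peptidase with which Peg3 shares its promoter, had 88 counts in the caecum, 27 in the colon and 28 in the ileum, and the caecum was 2.42-fold (1.56 to 3.84) above the ileum. The Usp29 row spans chr7:6913871-6916480 on mm9 and does not reach the Peg3 row. Usp29 over Peg3 per length was 0.00639 in the caecum, 0.00406 in the colon and 0.00490 in the ileum. Both were highest in the caecum, and the colon over the ileum was 1.13-fold (1.12 to 1.15) for Peg3, while that of Usp29 was not resolved at its counts (0.937, 0.531 to 1.65). Zim1, a maternally read zinc finger gene next to them, stood at 7.91, 6.55 and 5.56 RPKM with the caecum 1.41-fold (1.30 to 1.52) above the ileum.

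The Peg10 domain on chromosome 6 held 2 paternally read genes that start next to each other and 2 maternally read genes farther on. Peg10, a further gene derived from a retrotransposon, stood at 43.6 RPKM in the caecum, 31.9 in the colon and 27.1 in the ileum, and Sgce, which encodes a sarcoglycan of the cell membrane, at 9.93, 8.44 and 7.17. Both had the order caecum, colon, ileum, with the caecum above the ileum by 1.59-fold (1.55 to 1.63) for Peg10 and 1.37-fold (1.27 to 1.48) for Sgce. Asb4, an ankyrin repeat protein of a ubiquitin ligase, lies at chr6:5333386-5383022 on mm9 and stood at 15.0 RPKM in the caecum, 2.77 in the colon and 5.19 in the ileum. The caecum exceeded the colon by 5.44-fold (4.97 to 5.95) and the ileum by 2.86-fold (2.67 to 3.07), and the colon was 1.90-fold (1.71 to 2.11) lower than the ileum. The sum of 7 enteric neuron and glia markers had the same order at 121 RPKM in the caecum, 64.0 in the colon and 105 in the ileum, with 3 of 7 at least 2-fold higher in caecum than colon and 0 of 7 in the caecum against the ileum. Their part in the Asb4 difference was not tested. Ppp1r9a, an actin-binding scaffold best known from neurons, lies between Peg10 and Asb4 and stood at 8.10, 9.70 and 8.32 RPKM, with no difference above 1.19-fold.

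Nnat, a small membrane protein of the endoplasmic reticulum best known from brain and endocrine cells, had the highest RPKM of the members in the caecum and the colon. It lies at chr2:157385814-157388258 on mm9, inside an intron of Blcap, and stood at 1306 RPKM in the caecum, 1112 in the colon and 552 in the ileum. These levels ranked it 21, 31 and 116 among all features. Caecum and colon stood together, 1.18-fold (1.17 to 1.19) apart, and both stood above the ileum, by 2.34-fold (2.32 to 2.37) for the caecum and 1.99-fold (1.97 to 2.01) for the colon. Blcap had 2056 counts in the caecum, 1460 in the colon and 1248 in the ileum. A feature named AL672259.1 overlaps Nnat on the other strand and had 2126, 1799 and 812 counts, and its reads and those of Nnat were not told apart. The sum of 4 liver and yolk sac markers was 37.2 RPKM in the caecum, 28.0 in the colon and 10.5 in the ileum. This sum has the order of Nnat through Afp alone, which had 3144, 2400 and 433 counts. Ttr had 462, 158 and 226 counts and Apoa1 624, 152 and 164, both lowest in the colon, and Alb had 8, 36 and 6. The part of such cells in the Nnat difference was not tested.

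Nap1l5 and Zrsr1 are, like Nnat, single paternally read genes placed inside a host gene. Nap1l5, a nucleosome assembly protein gene inside an intron of Herc3, lies at chr6:58855228-58857120 on mm9 and had 574 counts in the caecum, 120 in the colon and 104 in the ileum. The caecum stood 4.24-fold (3.44 to 5.28) above the ileum and 3.78-fold (3.10 to 4.65) above the colon, while colon and ileum were 1.12-fold (0.855 to 1.47) apart. Herc3 had 1489 counts in the caecum, 1308 in the colon and 1152 in the ileum, 0.994 for caecum over ileum and 0.901 for caecum over colon after scaling. Zrsr1, a splicing factor gene inside Commd1, stood at 1.77 RPKM in the caecum, 1.71 in the colon and 1.71 in the ileum. Mcts2, a gene of the same kind from the list of further imprinted genes, stood at 7.86, 7.64 and 6.48 RPKM. Inpp5f, a phosphoinositide phosphatase gene with an imprinted transcript of its own, stood at 10.1, 9.43 and 9.20 RPKM.

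Zdbf2, a zinc finger gene read from the paternal copy, was higher in the colon than in both other segments. It had 5101 counts in the caecum, 8124 in the colon and 3950 in the ileum, or 6.25, 12.6 and 6.23 RPKM. Caecum and ileum were level (1.01-fold lower, 0.966 to 1.05), and the caecum was 2.01-fold (1.94 to 2.09) lower than the colon. Adam23, a membrane protein gene that follows Zdbf2 on chromosome 1, had 709 counts in the caecum, 1245 in the colon and 380 in the ileum. Adam23 was therefore also highest in the colon, 3.18-fold (2.84 to 3.58) above the ileum.

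The Snrpn domain on chromosome 7, the mouse counterpart of the Prader-Willi and Angelman region, stayed within 1.30-fold in each comparison apart from Magel2. Ndn, a growth-suppressing protein of the MAGE family, stood at 33.9 RPKM in the caecum, 31.8 in the colon and 28.0 in the ileum. Snrpn, which encodes a splicing protein, stood at 11.0, 8.47 and 10.7 RPKM, and Ube3a, a ubiquitin ligase whose paternal copy is silent mainly in neurons, at 18.8, 17.5 and 19.3. Mkrn3, a ring finger gene, stood at 1.37, 1.24 and 1.40 RPKM. Magel2, a further MAGE gene, had 160 counts in the caecum, 76 in the colon and 66 in the ileum, with the caecum 1.86-fold (1.39 to 2.52) above the ileum and 1.67-fold (1.26 to 2.22) above the colon. Magel2 over Ndn per length was 0.0157 in the caecum, 0.0101 in the colon and 0.0101 in the ileum, and Snrpn over Ndn was 0.324, 0.266 and 0.384.

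Members with broad activity completed the set. Mest, a mesoderm gene with a hydrolase fold, stood at 267 RPKM in the caecum, 264 in the colon and 214 in the ileum, with the caecum 1.23-fold (1.22 to 1.25) above the ileum. Gnas, which encodes the stimulatory G protein subunit that couples hormone receptors to cyclic AMP, stood at 97.9, 88.3 and 84.2 RPKM. Impact, a regulator of translation under stress, stood at 9.15, 8.20 and 9.59 RPKM, and Gatm, an enzyme of creatine synthesis, at 2.05, 1.80 and 2.35. None of these 4 exceeded 1.32-fold in any of the 3 comparisons.

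**Figure D5:**
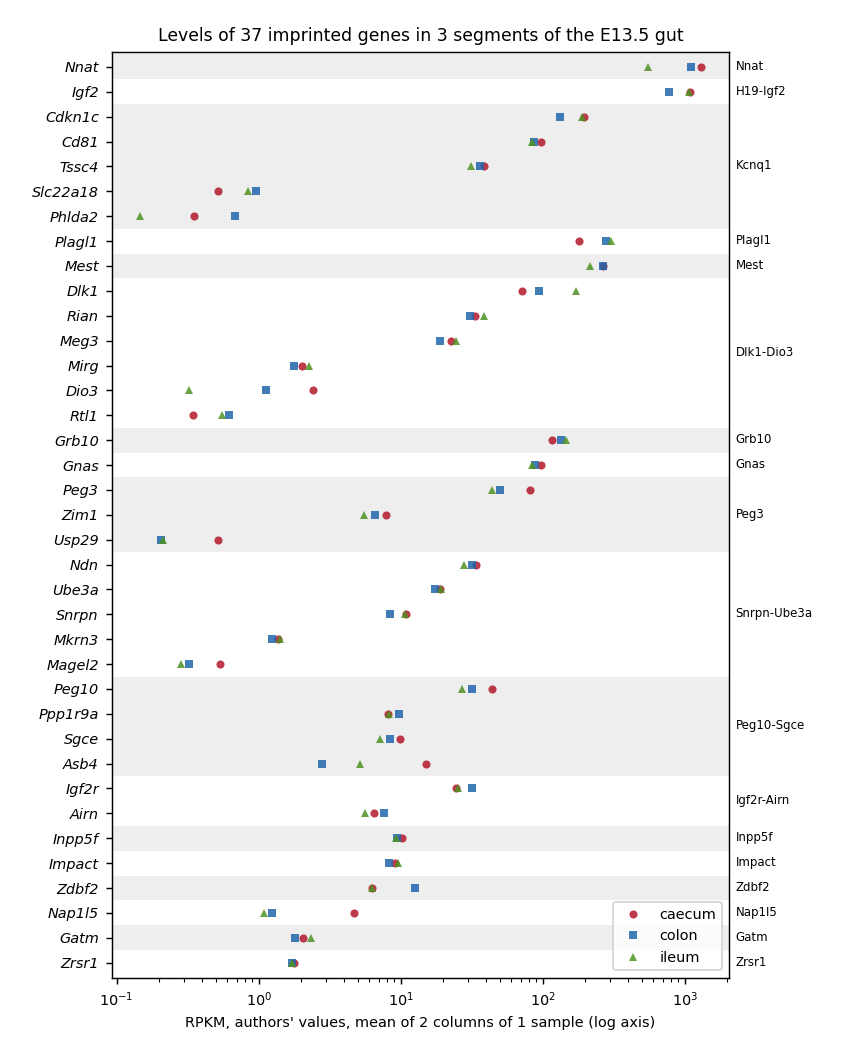
Level of each imprinted gene in RPKM on a log axis, with caecum, colon and ileum as separate points and genes grouped by domain. Nnat, Igf2, Mest and Plagl1 stand at the top, and Rtl1, Usp29, Phlda2, Slc22a18 and Magel2 are below 1 RPKM.

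The other imprinted genes and the proteins that act on imprints were read from lists. Of 51 further imprinted genes, 46 were found, 45 by name and Jade1 by its identifier. Among those with at least 20 counts, 4 of 39 were at least 2-fold higher and 2 lower in caecum than in ileum, 6 of 39 higher and 1 lower in caecum than in colon, and 2 of 38 higher and 5 lower in colon than in ileum. The shares over all features were 4.59% and 2.52%, 5.11% and 2.74%, and 4.04% and 4.29% in the same 3 comparisons, and all these counts are small. The most abundant on the mean of the 3 libraries were Nap1l4 at 121 RPKM, Copg2 at 60.2 and Slc38a4 at 32.5. Dcn, a small proteoglycan of the connective tissue matrix, had 3704 counts in the caecum, 1290 in the colon and 2320 in the ileum, with the caecum 2.27-fold (2.13 to 2.42) above the colon. Htr2a, a serotonin receptor, had 149 counts in the caecum, 4 in the colon and 8 in the ileum. Ctnna3, an alpha-catenin, had 328, 164 and 78 counts, with the caecum 3.23-fold (2.52 to 4.19) above the ileum. Th, the enzyme that makes the precursor of dopamine, had 104 counts in the caecum, 6 in the colon and 86 in the ileum. Tfpi2, a protease inhibitor, had 134, 40 and 148 counts, Ascl2, a transcription factor of placenta and intestinal stem cells, 32, 12 and 104, and Ampd3, an AMP deaminase, 126, 224 and 126.

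Of 30 imprint factors, enzymes and binding proteins that set, read, keep or remove the methylation mark, 28 passed the minimum and 0 were 2-fold apart in any comparison. Over all features, 4.59% were at least 2-fold higher and 2.52% lower in caecum than in ileum. The shares were 5.11% and 2.74% for caecum against colon, and 4.04% and 4.29% for colon against ileum. With shares this low and only 28 genes, the count of 0 is a description. The log2 folds of the 28 factors ran from -0.49 to 0.35 over the 3 comparisons. Trim28, the co-repressor that zinc finger proteins bring to imprints, averaged 167 RPKM over the 3 libraries, Mbd3 84.3 and the cohesin subunit Rad21 63.0. Zfp57 stood at 29.4 RPKM in the caecum, 28.6 in the colon and 23.1 in the ileum. Dnmt1, the maintenance methyltransferase, stood at 32.7, 31.7 and 33.0 RPKM, and the insulator protein Ctcf at 29.5, 29.4 and 29.7. Dnmt3l and Dppa3, known from germ cells and the early embryo, had 0 counts in every library, for which the limit is 3 counts per library.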

How the data were processed

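Polyadenylated RNA of mouse gut segments at E13.5 was sequenced as paired 100 bp reads, per the labels. Bowtie 0.12.7, DESeq and the mm9 build are listed in the submitters' processing notes, with no role or order. The deposited table gives expected counts, with fractions of 0.5 in places, and RPKM scaled by the authors to length and depth, per the file headers. How reads were counted, on which annotation and with what regard to strand is not given in the sources used here, and 16 of the 37 members overlap another feature.

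Both columns of a sample were averaged and rounded to whole counts. Libraries were scaled by TMM in edgeR 4.0.16 (R 4.3.3), with DESeq2 1.42.0 size factors as an alternative. Features needed 20 counts or more in whichever library of a pair was higher. The 95% intervals are exact (Clopper-Pearson on the share of a pair's counts in 1 library) and cover counting error only, since reads without molecular identifiers are not independent molecules. A count of 0 allows up to 3 counts. The planned test across samples was not possible with 1 sample per segment. The procedure was also run on simulated counts with counting error only. That run cannot show how far folds vary between samples of one segment.

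The members, gene lists and rules were chosen with earlier results of these data known. Named were members past 1.5-fold, the most abundant member of each domain, and list genes at least 2-fold apart with 100 counts or more. Coordinates are mm9 from the table, with the start shifted to count from 1, and sequences are from RefSeq on GRCm38.p6, which were never mixed.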

Additional observations from a re-analysis of the deposited data

How the results depend on the processing

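Each count of members at least 2-fold apart is small and depends on the threshold. At 1.5-fold in place of 2-fold, caecum over ileum gave 8 higher and 4 lower, caecum over colon 5 lower, and colon over ileum 4 higher and 2 lower. With the 95% interval wholly beyond 2-fold, caecum over colon gave 2 higher and 0 lower, and colon over ileum 1 higher. Colon over ileum gave 4 higher with total counts and with RPKM ratios, and 1 with a minimum of 100 counts. Caecum over colon gave 2 lower from the first column alone. Of 550 recomputed member folds, 30 fell outside the 95% interval of the reported fold, 10 each with total counts and RPKM ratios and 5 each with a single column, and scaling moved the median of all features by at most 0.0214 on the log2 scale. Without Igf2, added after the data were seen, the share was 1.09% in the caecum, 1.08% in the colon and 1.03% in the ileum. The share without H19 was not run, since H19 has no row. No paired analysis was possible because each segment has 1 sample, and no sample could be left out for the same reason. Depth limits the members under 100 counts, Usp29, Phlda2 and Slc22a18.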

Other observations

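The features next to and inside the domains were counted as well, 101 in all, of which 36 lie before, 29 inside and 36 after the members. At least 2-fold apart were 5 higher and 4 lower of 101 in the caecum against the ileum, 4 higher and 2 lower of 100 in the caecum against the colon, and 4 higher and 5 lower of 100 in the colon against the ileum. The shares over all features were 4.59% and 2.52%, 5.11% and 2.74%, and 4.04% and 4.29%. Dio3os, the antisense partner of Dio3, had 108 counts in the caecum, 58 in the colon and 9 in the ileum, with the caecum 9.23-fold (4.68 to 20.7) above the ileum, the same order as Dio3. Gm14085, before Gatm, had 24 counts in the caecum, 12 in the colon and 136 in the ileum. Cobl, an actin nucleator after Grb10, had 2691, 1792 and 4643 counts. Plg, the plasminogen gene of the liver, had 202, 17 and 40 counts near Igf2r. These rows were read after their values were seen, and no relation to the imprinted genes was tested.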
